A study of Homo sapiens with 16 samples.

Results

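The genes considered here encode the proteins of the cytosolic ribosome. They were taken as the protein-coding autosomal genes of GENCODE release 44 (hg38) whose symbols are RPL or RPS followed by a digit, with RPLP0, RPLP1, RPLP2 and RPSA added, and with RPS6K genes, symbols ending in BP1 and hyphenated readthrough genes left out. This gave 81 of 19970 protein-coding genes, of which 50 belong to the large subunit and 31 to the small subunit. The 19970 genes, and the backgrounds drawn from them, include the X chromosome and leave out the Y chromosome. The set holds 73 core genes and 8 paralogues (RPL3L, RPL7L1, RPL10L, RPL22L1, RPL26L1, RPL36AL, RPL39L and RPS27L). The choice used names only and no measured value.

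A ribosome carries 1 copy of most of these proteins, so every growing cell transcribes the core genes together and at a high rate. Their promoters are therefore commonly taken as housekeeping promoters. Many of their transcripts begin with a C followed by a run of pyrimidines, the 5′ terminal oligopyrimidine (TOP) motif, through which translation of these mRNAs follows mTOR signalling. Acetylation of lysine 27 of histone H3 (H3K27ac) marks active promoters and enhancers. Some of the paralogues replace a core protein in part of the tissues, as RPL3L does in heart and skeletal muscle and RPL10L in testis.

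H3K27ac was profiled by ChIP-seq in 2 cell lines, MDA-MB-231 and Hs578T, both established human triple-negative breast cancer cell lines. Each line was studied as CRISPR control cells and as cells with a knockout (KO) of Fn14, the TWEAK receptor encoded by TNFRSF12A. The KO used 2 guides, and the study's methods do not state whether the same vector carried both. The study lists its Fn14 KO primers among those for genotyping CRISPR clones, and the number of clones behind the KO cells is not given in the sources used here. All cells were starved in optimem for 8 h and were then untreated or received the cytokine TWEAK at 10 ng/ml for 48 h, with fresh TWEAK after 24 h. Every combination of line, genotype and treatment had 2 replicates, which gave 8 groups and 16 peak lists. The study's methods call the ChIP-seq replicates biological, while the labels only number them and name no separate cultures, so p-values measure the spread between these lists.

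Each list gives the position of every peak and its fold enrichment, a linear ratio over local background made by the authors with MACS2. The lists hold no read counts, so the depth is unknown. The files have the columns of broad peaks, in which MACS2 writes the mean enrichment over the whole peak. For each gene the canonical start site was taken with 2 kb on either side, a window of 4001 bp. The bp covered by peaks and the highest fold enrichment of any peak in that window were recorded in each list. The lists held between 39544 and 47197 peaks. VIM, CD44, CAV1, AXL and ZEB1, which mark mesenchymal-like breast cancer lines, had a peak in all 16 lists, and ESR1, PGR, GATA3 and CDH1 had none in any list. EPCAM and KRT19, which are epithelial markers, and the hepatocyte gene APOA1 had a peak in all 16 lists too, FOXA1 had a peak in 2 lists, and PTPRC, CD3E and ALB in none. The start of TNFRSF12A had a peak in all 16 lists. A promoter peak says nothing of an edited coding sequence and does not check the KO.

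The sequence at the start sites was examined first, since the acetylated window is centred on it. The RefSeq promoter table (GRCh38.p14, 250 bases before to 50 after each start) held 64 of the 81 genes, and for 61 of these its start was the GENCODE canonical start. The windows printed here hold the 60 bases before the start and the first 20 transcribed bases, 5′ to 3′ on the gene's strand. They belong to the 4 genes with the highest and the 4 with the lowest mean log2 fold enrichment among those with the same start in both annotations. Capitals mark the run of C or T that begins at the start base or at most 3 bases after it, which is the TOP-like part.
RPS16: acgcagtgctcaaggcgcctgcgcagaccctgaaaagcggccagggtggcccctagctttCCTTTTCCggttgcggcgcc
RPLP2: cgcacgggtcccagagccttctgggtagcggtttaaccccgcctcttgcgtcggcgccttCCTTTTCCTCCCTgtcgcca
RPL41: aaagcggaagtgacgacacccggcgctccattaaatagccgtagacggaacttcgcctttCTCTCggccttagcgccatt
RPL36AL: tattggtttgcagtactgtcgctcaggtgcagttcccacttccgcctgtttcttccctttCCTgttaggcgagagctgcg
RPL17: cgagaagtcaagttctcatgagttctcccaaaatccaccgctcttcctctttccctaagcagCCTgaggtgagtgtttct
RPL26: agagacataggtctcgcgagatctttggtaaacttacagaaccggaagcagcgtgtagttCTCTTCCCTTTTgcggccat
RPS24: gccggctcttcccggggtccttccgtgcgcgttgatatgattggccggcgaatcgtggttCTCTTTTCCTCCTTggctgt
RPL37A: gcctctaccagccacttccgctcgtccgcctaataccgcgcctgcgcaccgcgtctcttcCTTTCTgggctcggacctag
The windows lie at chr19:39435930-39436009 (minus strand) for RPS16, chr11:809907-809986 (plus) for RPLP2, chr12:56116573-56116652 (plus) for RPL41 and chr14:49620607-49620686 (minus) for RPL36AL. Those of the low group lie at chr18:49492446-49492525 (minus) for RPL17, chr17:8383174-8383253 (minus) for RPL26, chr10:78033803-78033882 (plus) for RPS24 and chr2:216498784-216498863 (plus) for RPL37A. A long run occurred at both ends of the range of acetylation, with 13 pyrimidines at RPLP2, which was high, and 14 at RPS24, which was low.

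A run of at least 6 pyrimidines was present in 46 of the 64 ribosomal protein promoters (71.9%), against 1492 of 15315 promoters in the table (9.74%). It was present in 16 of 39 promoters of translation factors and ribosome assembly genes (41.0%) and in 2 of 69 promoters of mitochondrial ribosomal protein genes (2.90%). The start base was C in 75% of the ribosomal protein promoters and in 10.7% of all promoters. The longest run, 16 pyrimidines, was that of RPL7A. Of the 6 paralogues in the table only RPL22L1 reached 6 pyrimidines, and the runs were 3 at RPL36AL and 1 at RPL7L1, RPL10L, RPL26L1 and RPS27L.

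Promoter motifs were searched on both strands of the 300 bases. The GABP/ETS letters CCGGAAG were found in 32.8% of the ribosomal protein promoters and 14.7% of all promoters, and the YY1 letters AAGATGGC in 10.9% and 4.16%. These 2 motifs can overlap in the letters AAG. The SP1 (GC box) letters GGGCGG were found in 54.7% and 61.8%, the TATA box letters TATAAA in 10.9% and 9.42%, the NRF1 core GCATGCGC in 4.69% and 4.37%, and the cyclic AMP response element TGACGTCA in 4.69% and 2.76%. Median GC content was 60.2% for the ribosomal protein promoters and 63.7% for all promoters. Among the 61 genes of the table with a peak, the median log2 fold enrichment was 3.31 for the 44 with a run of at least 6 pyrimidines and 3.59 for the 17 without. These 61 genes are not the same as the 61 with the same start in both annotations. The 17 include RPL6, RPL26L1 and RPS29, whose RefSeq starts lay 320, 544 and 12330 bp from the start used for fold enrichment.

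A peak lay within 2 kb of the start in all 16 lists for 76 of the 81 genes (93.8%), and in no list for the other 5. No gene was in between. Among all protein-coding genes 10909 of 19970 (54.6%) had a peak in all 16 lists and 63.9% had one in any list. The mitochondrial ribosomal protein genes had a peak in all lists for 77 of 78, the proteasome subunit genes for 35 of 38, and the translation factors and ribosome assembly genes for 49 of 50. Presence of a peak therefore did not separate replicates, TWEAK, genotype or line for any of the 81 genes.

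Among the genes without a peak were RPL24 of the core set and the paralogues RPL22L1, RPL3L and RPL10L. RPL24 (chr3:101681091-101686733, minus strand) encodes a large subunit protein. The peak names in the lists carry running numbers. Between the nearest listed peaks on either side of RPL24, 3 to 4 numbers were absent in each of the 16 lists, and for RPL22L1 1 to 2 numbers were absent in each list. No number was absent around RPL3L or RPL10L in any list. Of 7119 protein-coding starts without a peak that had listed peaks on both sides, 265 (3.72%) had absent numbers in all 16 lists and 6616 in none. Peaks in blacklisted regions had been removed from the lists per the study's methods, and the part of that step at these genes was not tested. RPL24 and RPL22L1 are therefore not counted as lacking acetylation.

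Compared with all starts, the ribosomal protein starts ranked higher in covered length than in fold enrichment. The fold enrichment is a mean over the whole peak and not a height. The median width of the peaks that gave it was 3393 bp for the ribosomal protein genes and 1938 bp for all starts. The part of peak width in this contrast was not tested. Over the 16 lists, the median covered length of the 76 genes ranged from 2248 to 2825 bp with a median of 2757 bp. The 10909 starts with a peak in every list had medians between 1666 and 2076 bp, and the mitochondrial ribosomal protein genes between 1180 and 1594 bp. The translation factors and ribosome assembly genes were nearly as wide as the ribosomal protein genes, with medians between 2147 and 2903 bp. Ranked among the 10909 starts of the same list, the median ribosomal protein start was at percentile 76.7 for covered bp (70.3 to 79.7 over the lists) and at percentile 58.0 for fold enrichment (47.3 to 67.8). The translation factors and ribosome assembly genes were at percentile 73.2 for covered bp and 66.1 for fold enrichment. By mean percentile, 38 of 76 (50%) lay above percentile 75 for covered bp, against 40.8% of the translation factors and ribosome assembly genes and 23.2% of all starts, while 11 of 76 (14.5%) lay above it for fold enrichment, against 23.2% of all starts. Only 1 gene lay below percentile 25 for fold enrichment, against 23.8% of all starts. These shares describe the sets, and no test was made between them.

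The width beyond that of all starts lay inside the genes. The start base itself was covered in 99.9% of the 1216 pairs of gene and list, and a single peak supplied the coverage in 1192 of them. At 1200 bp into the gene 81.7% of the ribosomal protein starts were covered, against 56.0% of the translation factors and ribosome assembly genes, 37.3% of all starts, 39.5% of the proteasome subunit genes and 10.3% of the mitochondrial ribosomal protein genes. At 2000 bp into the gene the values were 51.6% against 25.9%, 17.3%, 13.9% and 0.8% in the same order. On the other side, 1200 bp before the start, coverage was 33.7% against 31.8% of all starts. Coverage was longer downstream than upstream for 62 of the 76 genes. The genes are short, with a median length of 5548 bp against 27476 bp for all protein-coding genes.

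**Figure D1:**
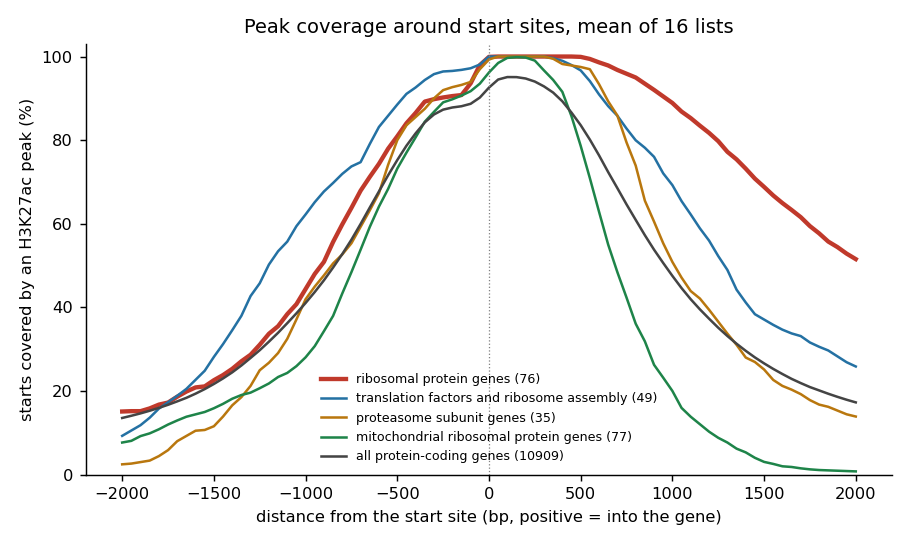
Share of starts covered by an H3K27ac peak (y axis, percent, mean over 16 lists) by distance from the start site (x axis, bp, positive into the gene) for 5 sets of genes with a peak in every list, with the number of genes in the legend. The ribosomal protein curve runs with that of all genes before the start and stays above the other 4 sets from 400 bp to 2000 bp into the gene, where it reaches 51.6% against 17.3% of all starts.

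A second start close by went with a wider region. Another protein-coding start lay within 2 kb of 20 of the 81 genes, on the opposite strand for 15 of them, and these 20 genes had a median of 3128 bp covered against 2494 bp for the 56 without such a neighbour. RPL7A lies 87 bp from the opposite-strand start of MED22, RPL12 104 bp from LRSAM1, RPL27A 127 bp from TRIM66 and RPS18 199 bp from VPS52. In such windows the acetylation of the neighbouring starts cannot be told apart. RPS10 and RPL26 share their start region with annotated readthrough genes on the same strand.

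RPL13, RPL23A and RPL26, all large subunit proteins, were covered over the whole 4001 bp in every list, and 15 genes were fully covered in 1 or more lists. RPL35, with a mean of 3892 bp, and RPL41, with 3768 bp, followed. The narrowest regions were those of the paralogue RPL39L, with a mean of 1181 bp (835 to 1873 bp), RPS20 with 1356 bp (764 to 1936 bp), RPL11 with 1372 bp (942 to 2133 bp), RPL6 with 1664 bp (1302 to 2098 bp) and RPL22 with 1768 bp (1464 to 2511 bp). At RPL11, whose protein binds MDM2 when ribosome assembly fails, nearly all of the covered sequence was in the gene, with a mean of 93.9 bp before the start and 1277 bp after it. Level and breadth were not the same property. The rank correlation of mean log2 fold enrichment and mean covered bp was 0.39 across the 76 genes and 0.58 across the 10909 starts, where genes are not independent replicates and the lists are shared.

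Among the promoters with high mean fold enrichment were RPS16 (mean 18.2), RPLP2 (17.4), RPL41 (16.1), the shortest of the ribosomal proteins, and RPL6 (15.2). RPLP2, a stalk protein that recruits elongation factors, had 24.5 and 20.1 untreated and 23.8 and 25.7 with TWEAK in the control cells of MDA-MB-231, and 19.7 and 16.96 against 17.3 and 18.4 in its KO cells. In Hs578T its values were 14.4 and 12.999 untreated and 15.5 and 13.3 with TWEAK in control cells, and 13.6 and 13.4 against 14.5 and 14.4 in KO cells. All 8 MDA-MB-231 lists were thus above all 8 Hs578T lists at this promoter.

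The lowest mean values among genes with a peak were at RPS15A (6.49, from 5.04 to 8.42), RPL17 (6.90, from 5.85 to 7.96), RPL26 (6.95, from 5.54 to 9.02) and RPS24 (7.02, from 5.33 to 11.7). RPL26 had the whole window covered and a median peak width of 5358 bp, so its region was wide and its mean enrichment over the peak was low. RPL23A had the whole window covered by a peak with a median width of 13066 bp and a mean fold enrichment of 14.9. The median of the 76 genes in a list ranged from 8.75 to 13.3, against 7.74 to 11.3 for the 10909 starts. The large subunit genes had list medians between 8.78 and 13.1 and the small subunit genes between 8.72 and 13.5, which overlap. The 5 paralogues with a peak had list medians between 9.86 and 14.2, with RPL36AL at a mean of 15.1, RPL26L1 at 13.8, RPL7L1 at 12.1, RPS27L at 11.5 and RPL39L at 7.42.

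**Figure D2:**
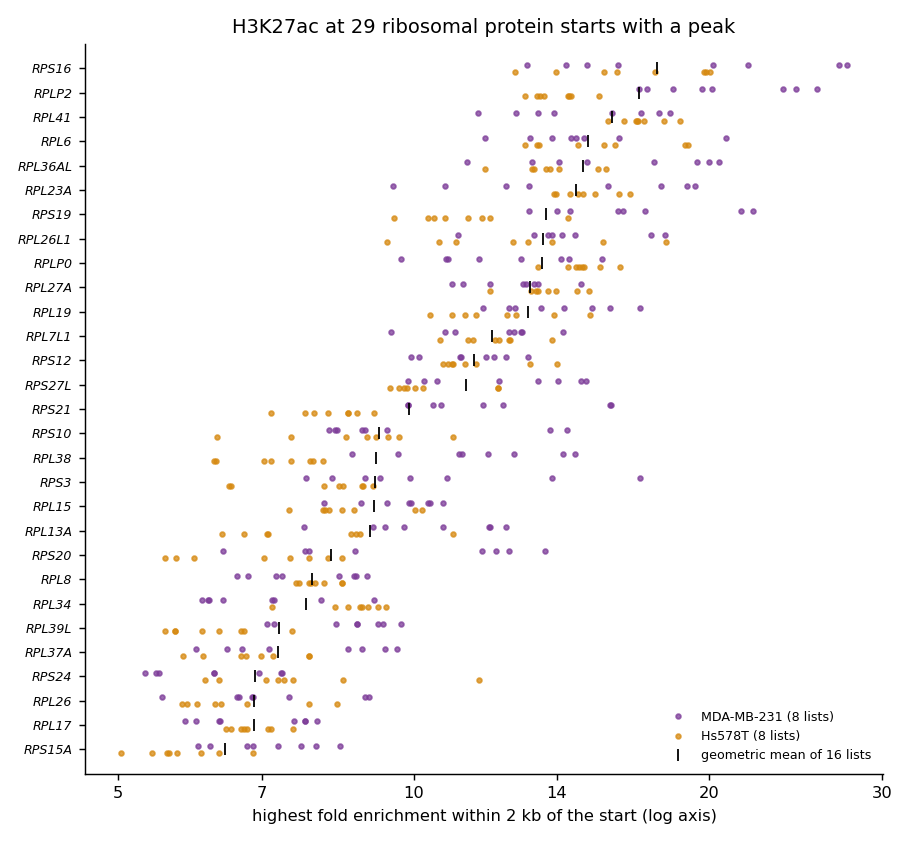
Highest fold enrichment within 2 kb of the start (x axis, log scale) in each of 16 lists for 29 of the 76 ribosomal protein genes with a peak. Genes are ordered by their geometric mean (black tick), with MDA-MB-231 lists in purple and Hs578T lists in orange. The 29 are a selection of the genes that the text names, and some genes whose values it gives are not shown. RPLP2, near the top, has its MDA-MB-231 lists above its Hs578T lists, and RPS15A is at the bottom, with a mean of 6.49.

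The order of the 76 genes was similar between lists. Between the 2 lists of a group the rank correlation across genes averaged 0.84 (8 pairs, 0.76 to 0.88). Between lists that differed only in TWEAK it averaged 0.84 (16 pairs), between lists that differed only in Fn14 genotype 0.79, and between lists that differed only in line 0.66. For genotype the mean was 0.73 within MDA-MB-231 and 0.85 within Hs578T. These are descriptions over 76 genes that share their lists.

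The spread of each gene was measured as the mean absolute difference between lists that differ in 1 factor only. Fold enrichment was put on a log2 scale for this, and each list was centred on the median of the 10909 starts, so that a difference is relative to the typical promoter of the same list. The median over the 76 genes was 0.14 log2 units between replicates, 0.17 for TWEAK, 0.21 for genotype and 0.27 for line. The same medians over the 10909 starts were 0.14, 0.17, 0.21 and 0.24. The ribosomal protein starts were thus as variable as the typical promoter between replicates, with TWEAK and with genotype, and their median between the lines was 0.03 above that of all starts.

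Line was the widest of the 4 spreads for 51 of the 76 genes. This count was not made over all starts, where line also had the widest median. The spread for line exceeded the replicate spread in 69 genes, that for genotype in 67 and that for TWEAK in 46. Over all starts these shares were 85.4%, 81.2% and 65.5%. The TWEAK spread was 0.19 in control cells and 0.13 in KO cells, where it was below the replicate spread of 0.14, and it exceeded the replicate spread of the same gene in 55 and 27 of the 76 genes, against 69.2% and 44.5% of all starts. In all starts the corresponding medians were 0.19 and 0.14.

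RPL41 was the steadiest promoter between replicates (0.05), with TWEAK (0.07) and with genotype (0.05). RPL17 was the steadiest between lines (0.09). The widest replicate spread was at RPL4 (0.40), the widest TWEAK spread at RPS3 (0.31), the widest genotype spread at RPL26L1 (0.56) and the widest line spread at RPL38 (0.67). The part of peak width in these spreads was not tested. As deposited and without centring, the medians for the 76 genes were 0.17, 0.20, 0.26 and 0.28, against 0.16, 0.18, 0.30 and 0.31 over all starts.

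For covered bp the medians over the 76 genes were 307 bp between replicates, 306 bp for TWEAK, 346 bp for genotype and 379 bp for line. Over the 12548 starts with a peak in at least 2 lists they were 216, 227, 248 and 269 bp. For the 49 translation factors and ribosome assembly genes, which were nearly as wide as the ribosomal protein genes, they were 287.5, 268, 288 and 314 bp. The breadth of the ribosomal protein promoters varied more in bp than that of the typical start, which was narrower, and their median for TWEAK was no larger than that between replicates. Between replicates the median was 387 bp in MDA-MB-231 and 220 bp in Hs578T.

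**Figure D3:**
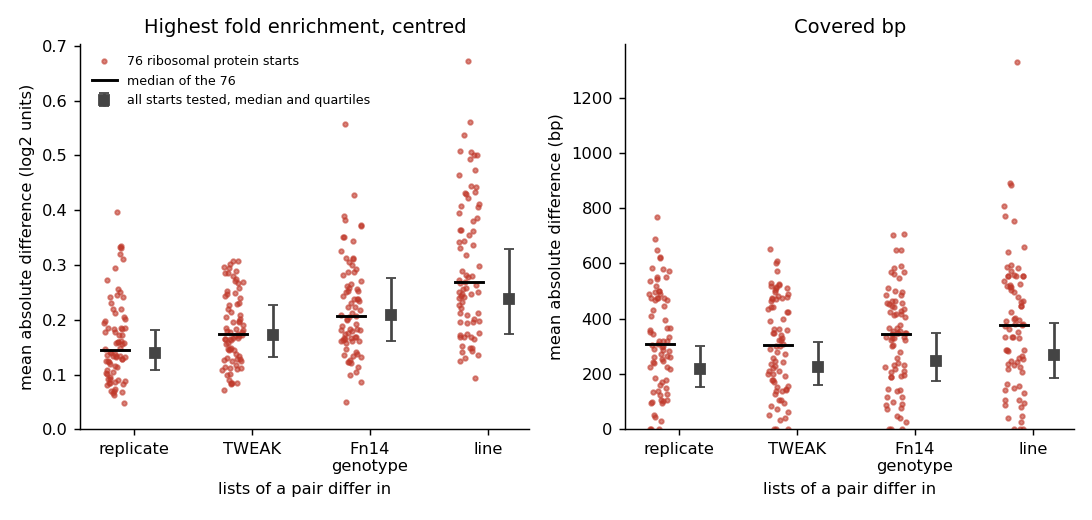
Mean absolute difference between lists that differ only in replicate, TWEAK, Fn14 genotype or line (x axis), for highest fold enrichment (left, centred log2 units) and covered bp (right), with each of the 76 genes as a red point, their median as a black line, and the median and quartiles of all starts tested as a grey square with bars. The red medians rise from 0.14 between replicates to 0.27 between lines on the left, and from 307 to 379 bp on the right.

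The range over all 16 lists was widest at RPS3, a small subunit protein at the mRNA entry site, with a 2.63-fold span from 6.48 to 17.02. Its values in MDA-MB-231 control cells were 13.8 and 8.25 untreated and 17.02 and 7.78 with TWEAK. The peak that gave them was 2027, 8455, 2191 and 9058 bp wide, so the high values came from narrow peaks and the low values from wide ones. The part of peak width in this range was not tested. RPS20 (2.44-fold), RPL38 (2.33-fold) and RPS19 (2.32-fold) also ranged widely. The narrowest ranges were at RPL8 (1.36-fold, from 6.60 to 8.95), RPL17 (1.36-fold), RPL27A (1.38-fold), RPS12 (1.41-fold) and RPL15 (1.43-fold).

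In control cells, part of the ribosomal protein starts had higher acetylation after TWEAK relative to the typical promoter, and most were not called. Fold enrichment was higher in 17 and lower in 1 of the 76 genes (limma on centred log2 values of all 16 lists, Benjamini-Hochberg adjusted over 10909 starts, threshold 0.05). Of all starts 13.2% were called higher and 13.6% lower, so 22.4% of the ribosomal protein starts stood above the background upward and 1.32% below it downward. The fitted difference was positive in 66 of 76 genes, with a median of 0.16 log2 units against −0.005 over all starts. The large subunit had 10 higher and 0 lower of 46 with a median of 0.16, and the small subunit 7 higher and 1 lower of 30 with a median of 0.17.

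The differences were mostly positive in both lines, and whether they differed between the lines was not tested. The median was 0.10 in MDA-MB-231, where 59 of 76 genes were positive, and 0.18 in Hs578T, where 66 were positive. The TWEAK lists all exceeded the untreated lists of their line for 21 of 76 genes on the centred scale, with 16.5% of all starts doing so, and all lay below them for 1 gene, RPS16, with 16.5% of all starts doing so. The called differences were small beside the levels, from 0.21 to 0.48 log2 units among the 17 genes.

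The background itself moved with the level of the promoter. Over all starts the median TWEAK difference in control cells was −0.06 for the lowest 2728 starts by mean log2 fold enrichment and 0.06 for the highest 2727. The ribosomal protein genes had medians of 0.18 (28 genes), 0.15 (31 genes) and 0.10 (16 genes) from the next to lowest to the highest of these 4 classes, where all starts had −0.02, 0.01 and 0.06. Other genes of protein synthesis and turnover had positive medians too. The proteasome subunit genes had 19 higher and 0 lower of 35 (median 0.23), the translation factors and ribosome assembly genes 9 higher and 1 lower of 49 (median 0.13), and the mitochondrial ribosomal protein genes 6 higher and 3 lower of 77 (median 0.04).

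In Fn14 KO cells no ribosomal protein start was called after TWEAK. None of the 10909 starts was called there (0% in either direction), and at an unadjusted p under 0.05 there were 4 of 76 ribosomal protein starts and 446 of all starts. The median difference was 0.005 and 41 of 76 genes were positive. The medians were 0.005 in MDA-MB-231 and 0.003 in Hs578T. The adjusted p was 0.999 for all 76. The 4 with an unadjusted p under 0.05, named after their values were seen, were RPS7 (0.32, SE 0.14), RPL38 (0.29, SE 0.12), RPL5 (0.22, SE 0.08) and RPL6 (−0.19, SE 0.09). The TWEAK lists all exceeded the untreated lists of their line for 1 gene, RPS18, against 2.36% of all starts, and below them for 0 genes, against 2.26%.

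The difference between the genotypes was tested directly. The TWEAK effect in control cells minus that in KO cells was higher in 6 and lower in 1 of 76 genes, against 7.47% of all starts higher and 6.61% lower. By share (7.89% and 1.32%) the upward calls were near the background. The median over the 76 genes was 0.18 against −0.01 over all starts, and 57 of 76 genes were positive. As deposited and uncentred 7 were higher and 0 lower (883 and 326 of all starts), under quantile normalisation 3 were higher and 1 lower (590 and 552 of all starts), and without the first MDA-MB-231 KO list with TWEAK 2 were called in all. The proteasome subunit genes had 11 higher and 0 lower of 35.

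**Figure D4:**
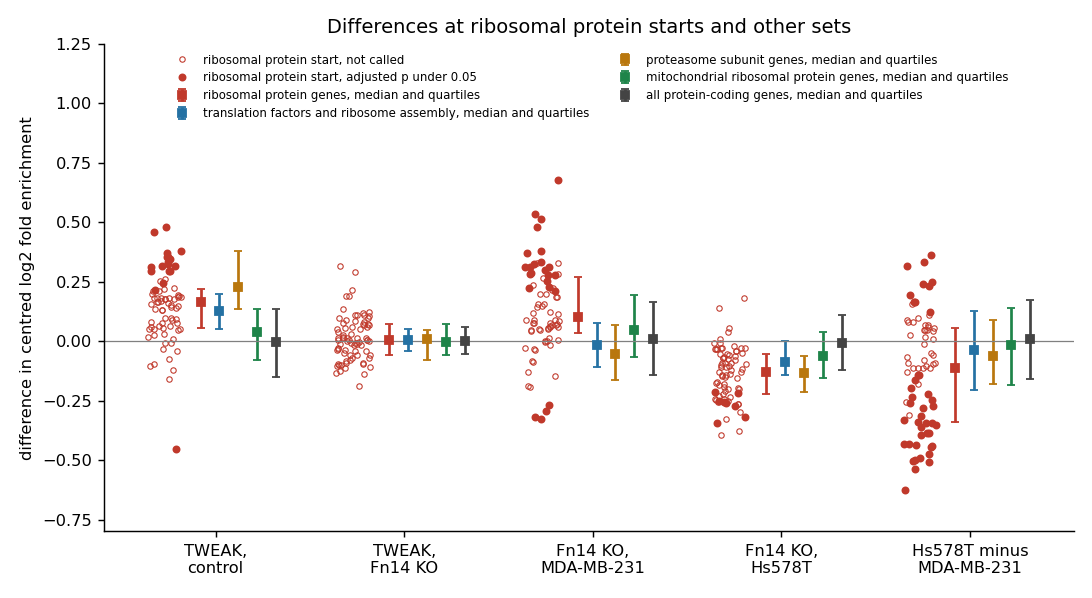
Fitted differences in centred log2 fold enrichment (y axis) for 5 comparisons (x axis), with the 76 ribosomal protein starts as red circles (filled where the adjusted p is under 0.05) and squares with bars for the median and quartiles of 5 sets. After TWEAK the red median is 0.16 in control cells and 0.005 in Fn14 KO cells, while the median of all protein-coding genes stays at −0.005 and 0.001.

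The largest difference after TWEAK in control cells was at RPS10 (0.48, SE 0.11, adjusted p = 0.00247), whose gene lies at chr6:34417454-34426069 on the minus strand. Its fold enrichment in MDA-MB-231 control cells was 9.40 and 8.92 untreated and 13.8 and 14.3 with TWEAK, and in Hs578T control cells 6.30 and 9.16 untreated and 9.65 and 10.98 with TWEAK. In KO cells it was 8.36 and 8.20 against 8.87 and 8.31 in MDA-MB-231, and 8.53 and 9.42 against 8.96 and 7.50 in Hs578T. As deposited, the groups did not overlap in control cells of either line and overlapped in KO cells of both. On the centred scale used for the tests, the control groups did not stay apart in both lines. The geometric mean width of its peak was 2007 bp with TWEAK and 2728 bp without, a ratio of 0.74, the lowest among the genes called. The part of width in this difference was not tested.

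RPS24, a small subunit gene mutated in Diamond-Blackfan anaemia (chr10:78033760-78056813, plus strand), came next (0.46, SE 0.10, adjusted p = 0.00136). Its values were 5.33 and 6.26 untreated and 7.34 and 7.33 after TWEAK in MDA-MB-231 control cells, and 6.13 and 6.33 against 11.7 and 8.47 in Hs578T control cells. In KO cells they were 6.96 and 5.47 against 5.50 and 6.25 in MDA-MB-231, and 7.38 and 7.28 against 7.54 and 7.07 in Hs578T. TWEAK lists were the higher ones in control cells only, and in KO cells the groups overlapped in both lines. The peak behind the 11.7 was 1955 bp wide, and the peak behind the 8.47 was 4508 bp wide. The untreated peaks of the same cells were 4283 and 3584 bp wide. In MDA-MB-231 the control peaks were wider with TWEAK (2876 and 3445 bp) than without (1814 and 2401 bp). The part of width in the RPS24 difference was not tested. The TWEAK effect differed between genotypes by 0.48 (SE 0.14, adjusted p = 0.024).

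RPS19, the gene most often mutated in Diamond-Blackfan anaemia (chr19:41860255-41872925, plus strand), was higher by 0.38 (SE 0.07, adjusted p = 0.000662). Its values were 14.4 and 17.2 untreated and 22.1 and 21.5 after TWEAK in MDA-MB-231 control cells, and 9.54 and 10.5 against 14.4 and 11.9 in Hs578T control cells. The KO values were 16.3 and 13.1 against 16.1 and 14.01 in MDA-MB-231, and 10.3 and 10.8 against 11.4 and 11.7 in Hs578T. TWEAK lists were thus higher without overlap in Hs578T KO cells too, and the TWEAK effect at RPS19 was not called different between the genotypes. Those KO peaks were 3331 and 2743 bp wide untreated and 1654 and 1895 bp wide with TWEAK. The Hs578T control peaks were 3056 and 2645 bp against 1961 and 2992 bp, and the 14.4 came from the 1961 bp peak. The MDA-MB-231 control peaks were 2305 and 2380 bp against 2344 and 2155 bp. The part of width in the RPS19 difference was not tested. RPL13A was higher by 0.35 (adjusted p = 0.0161), RPL19 by 0.35 (0.00238), RPL6 by 0.33 (0.00857), RPS26 by 0.33 (0.00284) and RPL12 by 0.32 (0.00328). Other genes called higher were RPL7A, RPL23, RPL26, RPL36, RPL37, RPS21 and RPS28. The peak was narrower with TWEAK than without in 7 of the 17 genes and wider in the others, with a median width ratio of 1.07 against 1.06 for the 58 genes not called.

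RPL6, a large subunit protein (chr12:112405189-112418838, minus strand), had the largest difference in TWEAK effect between the genotypes (0.52, SE 0.13, adjusted p = 0.00848). Its values were 13.8 and 14.9 untreated and 16.2 and 20.8 after TWEAK in MDA-MB-231 control cells, and 12.99 and 15.6 against 19.04 and 18.9 in Hs578T control cells. In KO cells they were 14.5 and 14.6 against 11.8 and 13.1 in MDA-MB-231, and 14.7 and 16.1 against 13.4 and 13.4 in Hs578T. TWEAK lists were higher in control cells and lower in KO cells, without overlap as deposited in any of the 4 comparisons. On the centred scale used for the tests, the control groups stayed apart in both lines and the KO groups did not. The KO difference on its own was not called. RPS21, RPL19 and RPL13A had differences of 0.36, 0.39 and 0.45 (adjusted p = 0.023, 0.0241 and 0.0479) and RPS10 of 0.49 (0.0354).

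RPL13A had peaks of very different width between lists, which a mean over the whole peak depends on. In MDA-MB-231 control cells its values were 7.73 and 9.78 untreated and 11.96 and 12.4 with TWEAK, at widths of 7055, 13857, 11466 and 10949 bp. The peak was narrowest in the untreated list with the lowest value, and the part of width in the difference was not tested.

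RPS16 was the exception. Its small subunit protein reaches the P-site tRNA, and its gene lies at chr19:39433137-39435949 on the minus strand. Fold enrichment was 27.6 and 27.1 untreated and 20.2 and 21.9 after TWEAK in MDA-MB-231 control cells, and 20.04 and 16.1 against 12.7 and 13.98 in Hs578T control cells. In KO cells it was 16.1 and 14.3 against 15.02 and 13.04 in MDA-MB-231, and 17.6 and 19.8 against 15.6 and 19.8 in Hs578T. All TWEAK lists of control cells were below the untreated lists of the same line, and the KO groups overlapped. It fell by 0.45 log2 units in control cells (SE 0.09, adjusted p = 0.000543), and the TWEAK effect differed between genotypes by −0.38 (SE 0.12, adjusted p = 0.0437). Its peak was 8218 bp wide without and 7146 bp with TWEAK in control cells (geometric means), and the part of width was not tested.

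**Figure D5:**
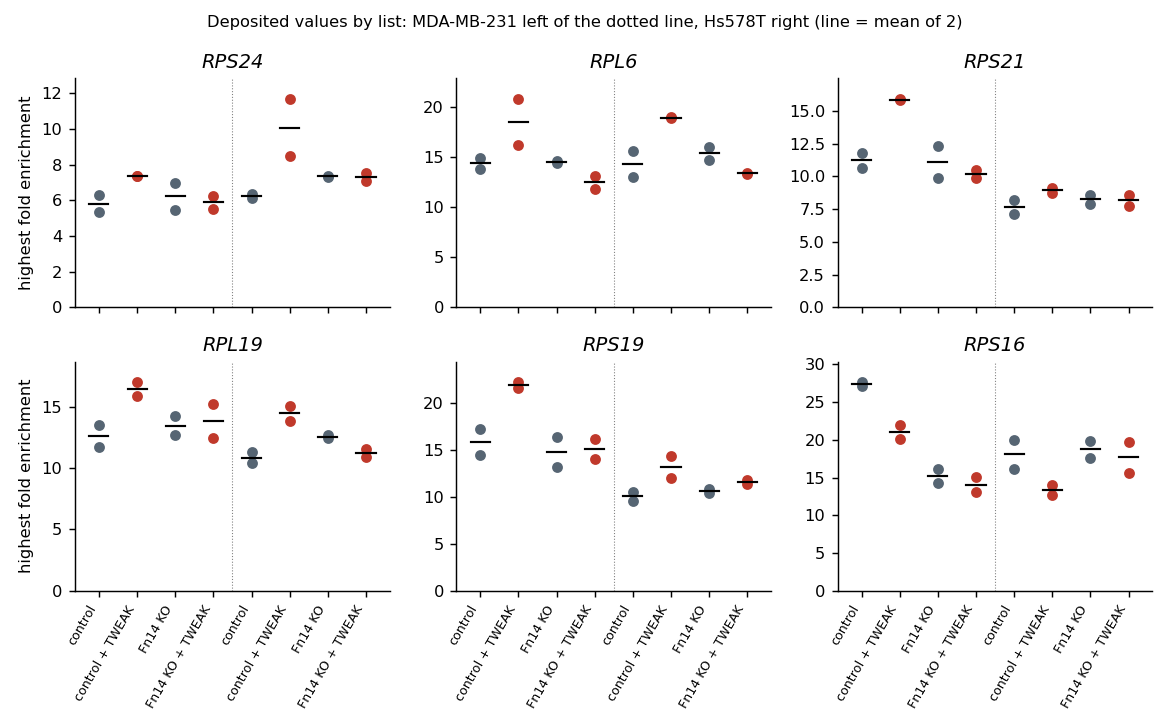
Highest fold enrichment as deposited (y axis, linear from 0) in each list for 6 genes, with the groups of MDA-MB-231 left of the dotted line and of Hs578T right of it, TWEAK lists in red, untreated lists in grey and the mean of 2 lists as a black line. RPS24, RPL6, RPS21, RPL19 and RPS19 have their TWEAK lists above the untreated lists in control cells of both lines, and RPS16 has them below.

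Covered bp was not called after TWEAK at any ribosomal protein start. In control cells 0 of 76 were called (3.12% of 12548 starts), with 4 at an unadjusted p under 0.05 and a median difference of 95.1 bp against −33.9 bp over all starts. The closest were RPS20 (652 bp, SE 176, adjusted p = 0.0843) and RPL39L (494 bp, SE 168, adjusted p = 0.174). In KO cells 0 were called (0% of all starts), with 2 at an unadjusted p under 0.05 and a median of 23.5 bp. For the difference between genotypes 0 were called (0.845% of all starts), with 2 at an unadjusted p under 0.05. RPL39L (673 bp, SE 237, adjusted p = 0.335) was closest.

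Between Fn14 KO and control cells the direction depended on the line and, in MDA-MB-231, on the scale. Relative to the typical promoter of each list, 20 ribosomal protein starts were higher and 4 lower in MDA-MB-231 KO cells, against 14.3% and 15.7% of all starts, with a median of 0.10 against 0.01. On the values as deposited, where the median of all starts was lower by 0.38 log2 units in KO cells, 1 ribosomal protein start was higher and 45 were lower, with a median of −0.29, and 55 of the 10909 starts were higher and 7913 lower. Under quantile normalisation 16 ribosomal protein starts were higher and 0 lower, with 932 and 987 of all starts. The ribosomal protein starts were thus lower in deposited fold enrichment, but by less than other promoters. Depth and enrichment efficiency of the lists are unknown, so a whole-list difference and a difference of every promoter cannot be told apart.

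Among the large centred differences in MDA-MB-231 KO cells were those at the paralogue RPL26L1 (0.68, SE 0.13, adjusted p = 0.00169), RPL29 (0.53, adjusted p = 0.0343) and RPS23 (0.48, 0.000618). RPL26L1 had 11.1, 13.3, 13.7 and 14.2 in control cells and 18.01, 13.8, 17.5 and 14.6 in KO cells (untreated lists first), so the groups overlapped as deposited. The peak that gave these values was 8669, 8704, 8477 and 8583 bp wide in control cells. In KO cells it was 1907, 1994, 1929 and 2033 bp wide, and the part of width in this difference was not tested. A further 6, RPL13A (0.38), RPL38 (0.37), RPS14 (0.33), RPL27A (0.33), RPL19 (0.31) and RPL7L1 (0.31), were called higher when centred and had differences between −0.01 and −0.08 as deposited. Lower both centred and as deposited, though not called under quantile normalisation, were RPS16 (−0.33, adjusted p = 0.00804), RPS20 (−0.32, 0.0379), RPS2 (−0.29, 0.0182) and RPL23A (−0.27, 0.00661). RPS2 had 12.9, 12.9, 14.5 and 13.7 in control cells and 7.92, 7.71, 10.3 and 7.82 in KO cells, without overlap.

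In Hs578T, 0 ribosomal protein starts were higher and 8 lower in KO cells, against 6.67% and 7.99% of all starts. The share called lower (10.5%) was near the background, and 71 of 76 fitted differences were negative, with a median of −0.13 against −0.006 over all starts. The 8 were RPL13A (−0.34), RPL23 (−0.32), RPL26 (−0.27), RPL7A (−0.26), RPL5 (−0.25), RPL12 (−0.25), RPL36AL (−0.22) and RPS12 (−0.21), with adjusted p between 0.0255 and 0.0434. As deposited and uncentred none of the 76 was called (14 at an unadjusted p under 0.05), and without the first KO list with TWEAK none was called either. RPL26 had 6.76, 5.88, 7.83 and 8.36 in control and 6.36, 6.28, 6.02 and 5.80 in KO cells, and the groups overlapped. This contrast averages over treatments, and its control groups are shared with the TWEAK comparison. The proteasome subunit genes had 0 higher and 8 lower of 35 there.

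Covered bp was called for RPL23 alone in MDA-MB-231 KO cells, where it was lower by 744 bp (SE 119, adjusted p = 0.00968, 1.98% of all starts called). RPL23, a large subunit protein that binds MDM2, had 2403, 2772, 2755 and 2799 bp in control cells and 1856, 1976, 1737 and 2182 bp in KO cells, without overlap. In Hs578T 0 of 76 were called (2.14% of all starts), with 4 at an unadjusted p under 0.05, and RPL22 (525 bp, SE 168, adjusted p = 0.146) and RPL4 (336 bp, SE 112, adjusted p = 0.166) were closest.

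More of these promoters were called between the lines, where 8 lists stand against 8, than in any other comparison. Fold enrichment was higher in Hs578T at 10 and lower at 32 of the 76 genes, against 27.5% and 25.7% of all starts. Higher calls were thus below the background share (13.2%) and lower calls above it (42.1%). The median difference, Hs578T minus MDA-MB-231, was −0.11 against 0.009 over all starts. The small subunit had 2 higher and 14 lower of 30, and the large subunit 8 higher and 18 lower of 46.

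The largest difference was at RPL38 (−0.63, SE 0.09, adjusted p = 1.24e-05), whose protein is known for its role in the translation of Hox mRNAs. Its values over the 8 MDA-MB-231 lists were 8.66 at the lowest and 14.6 at the highest, and over the 8 Hs578T lists 6.27 and 8.08, so the lines did not overlap. The peak that gave them was 753 to 4003 bp wide in MDA-MB-231 and 3318 to 7381 bp wide in Hs578T. The part of width in this difference was not tested. RPS9 (−0.54), RPS19 (−0.51), RPLP2 (−0.50), RPS21 (−0.47), RPL30 (−0.44), RPS27 (−0.44) and RPL5 (−0.43) were lower too, with adjusted p between 1.42e-07 and 0.000209. On the other side were RPL34 (0.36, SE 0.06, adjusted p = 5.48e-05), RPS24 (0.33), RPLP0 (0.32), RPL41 (0.25), RPL9 (0.24), RPS13 (0.23), RPL28 (0.20), RPL27 (0.17), RPL27A (0.16) and RPL23A (0.12), with adjusted p between 1.49e-05 and 0.037. RPLP0, the stalk protein often used as a reference transcript, is thus among the genes that differed between the lines, while RPLP2 of the same stalk differed in the other direction.

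Covered bp was higher in Hs578T at 7 and lower at 2 of the 76 genes, against 13.9% and 1.5% of all starts. The count of 9 was 4 with a window of 1 kb, 17 without the first untreated MDA-MB-231 KO list, and 5 without the first TWEAK control or second untreated KO list of MDA-MB-231 or the second untreated control list of Hs578T. RPS15A was higher by 1201 bp (SE 211, adjusted p = 0.00515), with 1495 to 3297 bp in MDA-MB-231 and 2637 to 4001 bp in Hs578T. RPL15 (754 bp), RPS24 (569 bp), RPL23 (556 bp), RPL12 (514 bp), RPL41 (401 bp) and RPLP0 (217 bp) were higher too. RPL30 was lower by 885 bp (SE 129, adjusted p = 0.00224), with 2422 to 3450 bp in MDA-MB-231 and 1535 to 2479 bp in Hs578T, and RPL7 by 334 bp (SE 70.0, adjusted p = 0.011), whose direction turned to 144 bp higher with the gene record start. The cap of 4001 bp limits any gain at genes whose window was already full.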

How the data were processed

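Per the study's methods, the authors used Trimmomatic for read trimming and Bowtie2 for alignment (hg38), MACS2 for peak calls on each library against input, and bedtools to take out blacklisted regions. Their versions and MACS2 settings are not given in the sources used here. The deposited columns are peak positions, a score, the fold enrichment (a ratio over local background), and the −log10 p-value and −log10 q-value. The deposited fold enrichment is not scaled between libraries. The score and the p-value column were not used. Genotype was taken from the sample titles.

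Starts are those of Ensembl canonical transcripts (GENCODE release 44). Fold enrichment was tested as log2 of the highest value in the window, without a pseudocount, for the 10909 starts with a peak in all 16 lists, each list centred on its median. Covered bp was tested for the 12548 starts with a peak in at least 2 lists. All 16 lists entered 1 limma fit of 8 group means (limma 3.58.1, R 4.3.3, robust moderated test with trend, 8 residual degrees of freedom), with 6 contrasts and Benjamini-Hochberg adjustment over all starts at 0.05. The fits were tested on simulated data. Named genes were those without a peak, the 5 highest and 5 lowest in level, breadth and range, the called genes (at most 10 a direction, or the 2 with the smallest adjusted p where these were not tied) and the paralogues, with those singled out for spread, neighbours or width added after their values were seen. Some items that this rule would name are not reported here. The genes and comparison sets were chosen with earlier results of these data known. Alternatives were other start records, windows of 1 and 5 kb, a −log10 q of at least 2, equal peak numbers, other scalings and filters, a replicate block, and leaving out each list. Sequences are from RefSeq (GRCh38.p14), where 17 of the genes had no entry.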

Additional observations from a re-analysis of the deposited data

Results flagged for a closer look

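At 7 of the 76 ribosomal protein starts the TWEAK effect on log2 fold enrichment differed between control and Fn14 KO cells by the limma test of that difference, against 815 starts higher and 721 lower of all 10909 (7.47% and 6.61%), so the set was not called more often than other starts. It was larger in control cells at RPL6 (0.52), RPS10 (0.49), RPS24 (0.48), RPL13A (0.45), RPL19 (0.39) and RPS21 (0.36), and lower in control cells at RPS16 (−0.38). In control cells all 7 had been called after TWEAK on their own. No group had more than 2 lists, so no list could be examined as standing apart within its group.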

How the results depend on the processing

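The number of genes with a peak in all 16 lists (76) was 72 with the gene record start, 77 with a window of 5 kb, and 76 with 1 kb, the stricter q and equal peak numbers. The median covered length of 2757 bp became 1875 bp with a window of 1 kb and 4093 bp with a window of 5 kb, which follows from the window. For fold enrichment, the counts of called genes after TWEAK in control cells (18) and between the lines (42) stayed within 1.5 times under every alternative run, with ranges of 12 to 18 and 39 to 43 when a list was left out, and 0 were called in KO cells throughout. The count for Fn14 KO in MDA-MB-231 (24) was 46 without centring and 12 to 24 with a list left out. It was 12 without the second untreated KO list, 15 without the second untreated or second TWEAK control list and 13 without the first TWEAK control list. The count in Hs578T (8) was 0 without centring, 4 with starts having a peak in at least 2 lists, and 0 to 9 with a list left out, with the lowest value reached without the first KO list with TWEAK. It was 2 without the second TWEAK control list of Hs578T, 3 without the second untreated control or first untreated KO list of Hs578T, 4 without its second KO list with TWEAK, and 5 without its first TWEAK control list, its second untreated KO list or either TWEAK control list of MDA-MB-231. The count for the difference in TWEAK effect between genotypes (7) was 4 under quantile normalisation and 2 to 6 with a list left out, lowest without the first MDA-MB-231 KO list with TWEAK. It was 3 without either untreated KO list of MDA-MB-231, and 4 without either TWEAK control list of MDA-MB-231, either untreated control list or the first TWEAK control list of Hs578T, or the second Hs578T KO list with TWEAK. Uncentred, the MDA-MB-231 KO differences of 6 genes changed sign, to −0.0129 at RPL13A, −0.0195 at RPL38, −0.0576 at RPS14, −0.0659 at RPL27A, −0.0793 at RPL19 and −0.0808 at RPL7L1. For covered bp, counts became 1 with the gene record start for TWEAK in control cells (also 2 with 5 kb and 1 with centred lists), for its difference between genotypes and for KO in Hs578T (also 1 with 5 kb), all from 0. KO in MDA-MB-231 gave 2 with 5 kb and 1 to 2 with a list left out (2 without the first untreated list of either MDA-MB-231 genotype or without either untreated control list of Hs578T). The count between the lines (9) was 4 with 1 kb and 5 to 17 with a list left out, with 17 without the first untreated MDA-MB-231 KO list and 5 without the first TWEAK control or second untreated KO list of MDA-MB-231 or the second untreated control list of Hs578T, and at RPL7 the direction turned with the gene record start, from 334 bp lower to 144 bp higher in Hs578T. Where no cause is stated, the cause was not tested. Replicates of the same number showed little common deviation (correlations from −0.17 to 0.17 over group pairs), and the main fit did not pair lists by number. The labels do not say whether equal numbers share a culture, and these correlations cannot decide it. With a replicate block within each line, fold enrichment calls were 18 after TWEAK in control cells, 0 in KO cells, 7 for their difference, 21 for KO in MDA-MB-231, 12 for KO in Hs578T and 43 between the lines, and covered bp calls were 1 for KO in MDA-MB-231, 6 between the lines and 0 in the others. Unknown depth limits all values.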

Other observations

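The X-linked ribosomal protein genes, outside the autosomal set, also had a peak in all 16 lists. Mean fold enrichment was 20.7 at RPL10 (13.1 to 40.5) and 18.1 at RPL39 (12.6 to 27.3), against 9.26 at RPS4X and 7.49 at RPL36A.

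Processed pseudogenes of these genes are scattered over the genome without the promoter of their parent. Of 1515 annotated autosomal ribosomal protein pseudogenes, 83 (5.48%) had a peak within 2 kb of their start in all 16 lists and 191 in any list. Of the 23 with a protein-coding start within 2 kb, 11 (47.8%) had a peak in all lists, and of the other 1492, 72 did (4.83%). Among those 83, the start base itself was covered in 22.9% of the pairs of pseudogene and list, against 99.9% of the pairs for the 76 ribosomal protein genes with a peak.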
